A study of Mus musculus with 8 samples.

Results

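De novo lipogenesis, the making of fatty acids from acetyl-CoA, was followed at the RNA level through 10 genes of the 43629 in the deposited count table: the citrate carrier Slc25a1, the acetyl-CoA-producing enzymes Acly and Acss2, malic enzyme Me1, the acetyl-CoA carboxylases Acaca and Acacb, fatty acid synthase Fasn, and the regulators Srebf1, Mlxipl and Thrsp. The genes were listed by name and role, with earlier results of these data known, and each was found under a single gene identifier. Messenger RNA had been sequenced from 3T3-L1 adipocytes, fat cells differentiated in culture from a mouse fibroblast line, in 4 groups of 2 libraries. Treatment started on day 8 of differentiation and lasted 24 h. One group was left untreated, one received 2 uM A66, an inhibitor selective for the alpha catalytic subunit of phosphoinositide 3-kinase (PI3K), one received 0.5 mM palmitate, a saturated fatty acid supplied bound to serum albumin (BSA), and one received both agents at those doses. All groups had been differentiated with insulin, dexamethasone, isobutylmethylxanthine and rosiglitazone, the last being an agonist of the adipocyte receptor PPARgamma. Because the control cells were left untreated, palmitate and its albumin carrier, and A66 and any solvent, cannot be told apart, and the methods give another dose of A66 and name a DMSO vehicle.

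In fat cells, citrate leaves the mitochondrion through the citrate carrier and is cleaved in the cytosol to acetyl-CoA, while a second route makes acetyl-CoA from free acetate. Acetyl-CoA carboxylase turns acetyl-CoA into malonyl-CoA, and fatty acid synthase joins these units into palmitate with the reducing power of NADPH, part of which comes from malic enzyme. Insulin, acting through PI3K, and the transcription factors SREBP-1 and ChREBP are the best known activators of these genes, and polyunsaturated fatty acids and sterols restrain SREBP processing. Palmitate is thus both the main product of the pathway and one of the agents added here.

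Library totals ran from 42247091 to 57529803 counts, and the 10 genes together took 0.261% to 0.303% of them. All 10 passed the filter on low counts in every comparison, with 301 counts for Mlxipl in its lowest library and 55031 for Fasn in its highest. Levels are given as CPM (library-size-scaled counts, with TMM factors over all 8 libraries), and changes as log2 fold changes from edgeR's quasi-likelihood test with p-values adjusted over all genes tested. The 11 adipocyte markers examined, among them Adipoq, Fabp4, Plin1 and Lpl, all had counts. Counts were also found for 8 of 9 preadipocyte or fibroblast markers (Dlk1 at 0), 4 of 5 macrophage markers (Adgre1 at 0), 2 of 3 hepatocyte markers (Ttr at 0) and 3 of 4 brown adipocyte markers (Ucp1 at 0), the last 2 lists summing to at most 0.166 and 0.466 CPM. No gene had been deleted, so no targeted transcript checks the labels, and each direction below, that of the A66 changes above all, is uncertain as far as the treatment stated for each library is: exchanged labels would reverse it. In these bulk samples fewer cells of a type and less RNA per cell cannot be told apart. With 2 libraries against 2, an exact permutation test cannot give a two-sided p below 0.333, so the tests below rely on spread estimated across genes.

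Per length of exon sequence, the untreated cells held most RNA for the citrate and fatty acid synthase steps and least for ChREBP. Slc25a1 stood at 93.7 ± 3.60 CPM per kb (SD, n = 2), Fasn at 93.5 ± 0.706, Acly at 83.0 ± 0.0191, Thrsp at 81.7 ± 2.56 and Me1 at 70.0 ± 3.23. Slc25a1 and Fasn differed by less than the spread of Slc25a1, and Acly and Thrsp by less than the spread of Thrsp. The remaining genes were lower, with Srebf1 at 29.2 ± 2.24, Acaca at 22.9 ± 0.205, Acacb at 14.0 ± 0.693, Acss2 at 5.77 ± 0.347 and Mlxipl, which encodes ChREBP, at 1.63 ± 0.239 CPM per kb. Dividing by the longest transcript instead of the union of exons put Thrsp first at 128 CPM per kb and raised Acss2 to 16.3, above Acacb at 15.3, and Acaca to 41.1, above Srebf1 at 38.3. The ratio of the highest to the lowest gene was 57.6 with exon unions and 51.4 with longest transcripts.

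**Figure D1:**
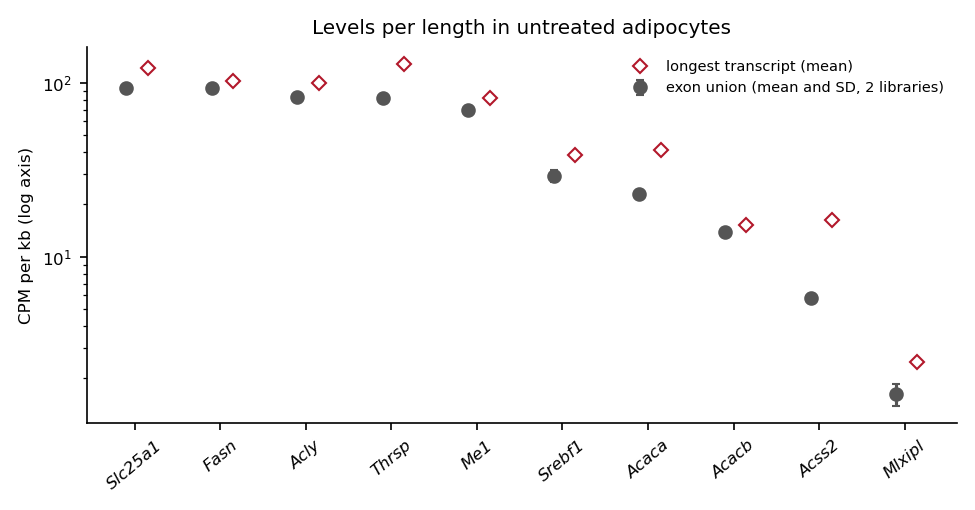
Level of each gene in untreated adipocytes in CPM per kb on a log axis, divided by the exon union (filled, mean and SD of 2 libraries) or by the longest transcript (open, mean). Mlxipl is lowest by both lengths, and Thrsp is highest when the longest transcript is used.

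The sequences just before the start sites are shown for Slc25a1 and Acly, which rose with palmitate alone and on top of A66, and for Fasn, which did not pass in either comparison. They are the 250 bases before a RefSeq start on GRCm38.p6, written 5′ to 3′ on the gene's strand, with capitals marking matches on either strand to the GC box (CCGCCC or GGGCGG), the CCAAT box (CCAAT or ATTGG), the core of the sterol regulatory element (TCACCC or GGGTGA) and the E-box (CACGTG). Neighbouring matches can run together, as the overlapping CCAAT boxes of Fasn do.
Slc25a1, chr16:17928220-17928469, minus strand: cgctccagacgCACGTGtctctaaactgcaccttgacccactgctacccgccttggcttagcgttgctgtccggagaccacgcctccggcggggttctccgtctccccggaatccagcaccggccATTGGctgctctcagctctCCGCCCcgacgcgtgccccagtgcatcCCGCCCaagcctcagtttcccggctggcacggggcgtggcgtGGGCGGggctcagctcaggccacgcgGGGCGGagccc
Acly, chr11:100528001-100528250, minus strand: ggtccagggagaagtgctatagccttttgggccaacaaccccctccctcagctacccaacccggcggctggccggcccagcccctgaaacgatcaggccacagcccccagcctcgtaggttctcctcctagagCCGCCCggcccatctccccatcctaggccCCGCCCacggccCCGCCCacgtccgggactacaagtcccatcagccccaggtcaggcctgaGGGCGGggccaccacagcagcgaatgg
Fasn, chr11:120824548-120824797, minus strand: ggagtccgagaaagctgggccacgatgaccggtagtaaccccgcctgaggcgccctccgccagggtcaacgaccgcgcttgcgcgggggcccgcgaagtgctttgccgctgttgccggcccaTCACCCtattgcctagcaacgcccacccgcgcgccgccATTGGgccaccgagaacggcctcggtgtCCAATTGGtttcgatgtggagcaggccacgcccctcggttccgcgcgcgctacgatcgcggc
Acly carried 4 GC-box matches and no match to the other motifs. Acss2 carried 4 GC boxes, a CCAAT box at position -73 and a sterol element core at -31, directly after a GC box. Slc25a1 carried 4 GC boxes, a CCAAT box at -125 and an E-box at -239. Fasn had 3 CCAAT matches and a sterol element core at -128, and Thrsp had 2 CCAAT matches. Over the 14 RefSeq starts of the 10 genes, 7 held a GC box, against 32.7% of 32851 mouse starts, 9 a CCAAT box, against 33.8%, 4 a sterol element core, against 13.8%, and 2 an E-box, against 6.02%. The 4 cores lay before starts of Acss2, Fasn, Me1 and Srebf1, and so before genes that rose with palmitate in some comparison and genes that did not. The ChREBP element and the LXR element matched at 0 of the 14 starts, against 0.0274% and 0.0152% of all starts, which says only that those letters were not in these windows. Windows of Acss2, Thrsp, Acaca and Acacb, both of Me1, 2 of Srebf1, the one with the sterol element core among them, and 1 of Mlxipl reach into or lie inside the genes as GENCODE draws them, so their sequences are not shown and their matches are not all upstream of the gene.

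Palmitate alone raised Slc25a1, Acly and Acss2, the 3 of the 10 genes that supply acetyl-CoA, while Acaca, Acacb and Fasn did not pass the test. Acss2 rose by 49.8%, Acly by 31.3% and Slc25a1 by 17.3%, Thrsp fell by 16.2%, and the other 6 genes did not pass the test. These 4 calls among 10 genes, 3 higher and 1 lower, stand beside 1.17% of the 14587 genes tested (0.631% higher and 0.542% lower), and 6 of 10 against 12.0% had an unadjusted p under 0.05.

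Slc25a1 (chr16:17925223-17928219, minus strand, GRCm38) moves citrate out of the mitochondrion. It stood at 197 and 208 CPM in the untreated libraries, 185 and 173 under A66, 232 and 243 under palmitate, and 228 and 228 with both agents. All 4 libraries with palmitate were above all 4 without. The log2 change with palmitate was 0.23 (SE 0.044, adjusted p = 0.00758). Leaving out untreated library 1 ended this call (adjusted p = 0.128).

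Acly (chr11:100476353-100528000, minus strand), ATP citrate lyase, cleaves that citrate into acetyl-CoA and oxaloacetate. Its level was 438 and 438 CPM in untreated cells, 394 and 401 under A66, 581 and 569 under palmitate, and 538 and 538 with both agents. The groups were ordered A66, untreated, palmitate plus A66, palmitate, with no overlap between any neighbours. With palmitate alone the log2 change was 0.39 (SE 0.039, adjusted p = 2.09e-06), seventh by p among all genes tested.

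Acss2 (chr2:155517948-155585724, plus strand), acetyl-CoA synthetase of the cytosol and nucleus, makes acetyl-CoA from acetate. It read 56.2 and 61.2 CPM without treatment, 51.8 and 48.7 under A66, 91.1 and 85.0 under palmitate, and 85.8 and 78.9 with both agents. Its log2 change of 0.58 with palmitate (SE 0.054, adjusted p = 1.01e-06) was the largest of the 10 genes upward and ranked 4 by p among all genes tested. Its exons share 395 bases with Gss, 335 with Acss2os and 197 with Ggt7 on the opposite strand, of 10163 exon bases, and whether counting used strand is not stated. The calls of Acly and Acss2 held when any of the 4 libraries compared was left out.

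Me1 (chr9:86581371-86695953, minus strand), malic enzyme, turns malate into pyruvate and yields NADPH. It measured 261 and 278 CPM in untreated cells, 255 and 247 under A66, 296 and 289 under palmitate, and 283 and 290 with both agents. Like Slc25a1, Acly and Acss2, it was higher in all 4 libraries with palmitate than in all 4 without, which 7.68% of the genes tested did in either direction, against 4 of the 10 here. The change with palmitate alone, 0.12 on the log2 scale (SE 0.042, adjusted p = 0.209), did not pass the test.

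**Figure D2:**
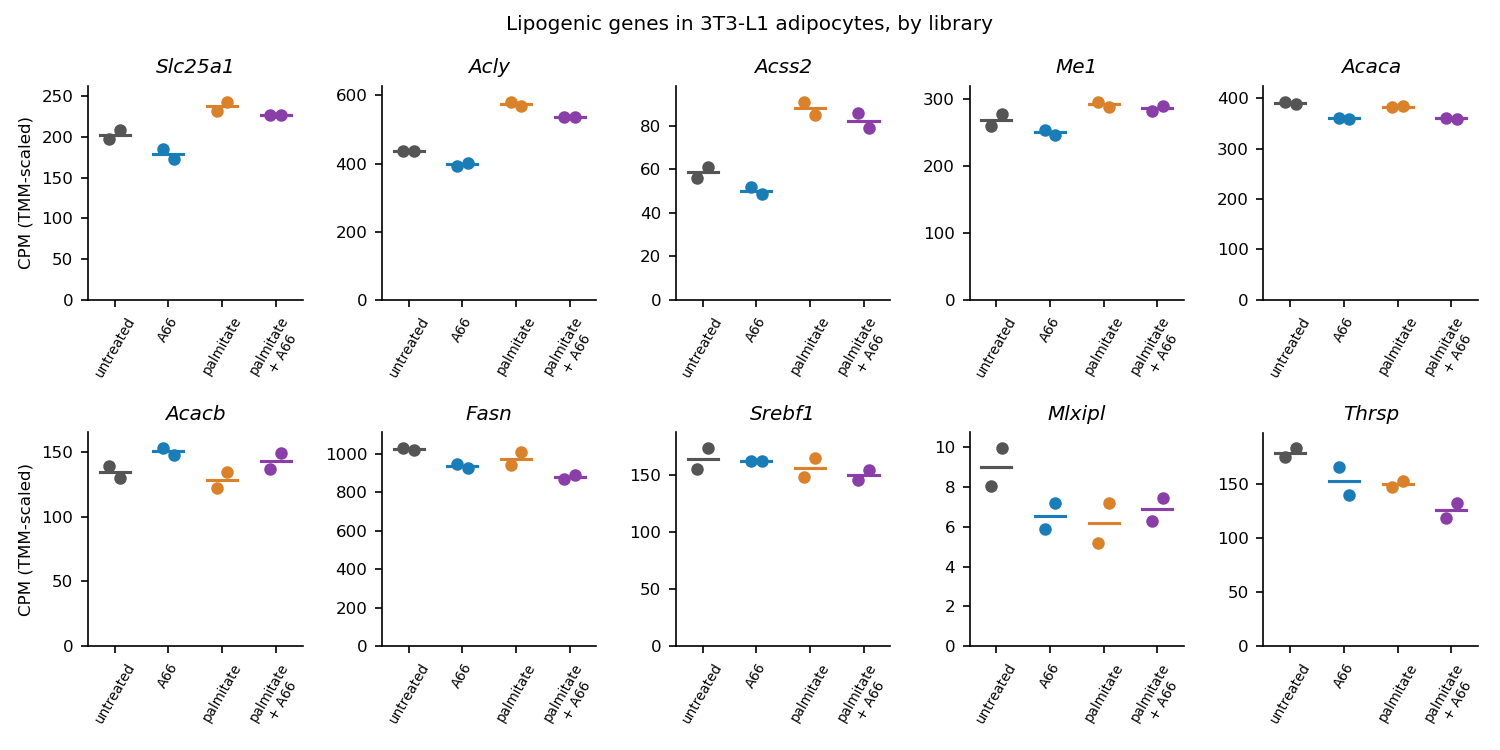
CPM of each gene in each of the 8 libraries, with the group mean as a line and the axis from 0. Slc25a1, Acly, Acss2 and Me1 are higher in all 4 libraries with palmitate, while Fasn and Thrsp are lowest with palmitate plus A66.

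The 3 genes that use acetyl-CoA did not pass the test with palmitate. Fasn (chr11:120805846-120824547, minus strand) stood at 1029 and 1018 CPM in untreated cells, 949 and 926 under A66, 940 and 1007 under palmitate, and 871 and 893 with both agents. Its palmitate libraries lay below the untreated ones, but the log2 change was -0.07 (SE 0.042, adjusted p = 0.530). Acaca (chr11:84129672-84401651, plus strand), the carboxylase of the lipogenic cytosol, gave 393 and 388 CPM untreated, 362 and 359 under A66, 382 and 385 under palmitate, and 360 and 360 with both agents, and its log2 change with palmitate was -0.03 (SE 0.039, adjusted p = 0.852). Acacb (chr5:114146535-114250761, plus strand), the carboxylase of the mitochondrial surface whose malonyl-CoA restrains fatty acid oxidation, ranged from 122 to 153 CPM over the 8 libraries. With palmitate it read 122 and 135 CPM against 139 and 130 without treatment, and its log2 change of -0.07 (SE 0.052, adjusted p = 0.664) did not pass either.

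Among the regulators, Thrsp (chr7:97412938-97417730, minus strand), the Spot 14 protein that associates with lipogenic activity, read 175 and 183 CPM in untreated cells, 166 and 140 under A66, 147 and 153 under palmitate, and 119 and 133 with both agents. Both palmitate libraries were below both untreated ones, with a log2 change of -0.26 (SE 0.060, adjusted p = 0.0331). The call was lost without untreated library 1 (0.0717), untreated library 2 (0.155) or palmitate library 1 (0.274), and with DESeq2 (adjusted p = 0.240). Mlxipl (chr5:135089890-135138382, plus strand) was low everywhere, at 8.08 and 9.95 CPM untreated, 5.89 and 7.18 under A66, 5.20 and 7.20 under palmitate, and 6.31 and 7.45 with both agents. Every treated library lay below both untreated libraries, and the log2 change with palmitate was -0.55 (SE 0.15, adjusted p = 0.0751). It passed without palmitate library 2 (adjusted p = 0.0109), with only the 4 libraries compared in the fit (0.0430), with the replicate block (0.0116), with the block and GC offsets (0.00834) and with no filter (9.56e-04). Srebf1 (chr11:60199089-60222581, minus strand), which encodes SREBP-1, ranged only from 145 to 173 CPM, and its 148 and 165 CPM with palmitate overlapped the 156 and 173 CPM of untreated cells (log2 change -0.07, SE 0.053, adjusted p = 0.641). Its counts do not separate the transcripts from different starts, and 109 of its exon bases are shared with Rai1 on the opposite strand.

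The summed level of the 11 adipocyte markers was 18038 to 18084 CPM in untreated cells, 17739 to 18435 under A66, 15991 to 16959 under palmitate and 15452 to 16529 with both agents. The largest part of this sum was Lpl, at 8164 to 9924 CPM over the 8 libraries. Lpl alone of the 11 passed the test with palmitate (log2 change -0.19, adjusted p = 0.0331), and among the fibroblast markers Col1a1 (0.25, adjusted p = 0.00331) and Postn (0.32, adjusted p = 0.00323) rose. Preadipocyte or fibroblast markers summed to 4473 to 4748 CPM untreated, 4523 to 4646 under A66, 4723 to 5030 under palmitate and 4141 to 4425 with both agents. Col3a1, at 2953 to 3537 CPM, was the largest part of that sum. Macrophage markers, mostly Cd68 and Lyz2, summed to 5.75 to 6.66 CPM untreated, 5.93 to 6.59 under A66, 7.51 to 7.87 under palmitate and 7.79 to 8.77 with both agents. The part of these shifts in the fall of Thrsp or the rise of Acly, Acss2 and Slc25a1 was not tested.

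On top of A66, palmitate raised 4 of the 10 genes and lowered 1. Compared with A66 alone, palmitate plus A66 raised Acss2 1.64-fold, Acly 1.35-fold, Slc25a1 1.27-fold and Me1 1.14-fold, and Thrsp fell by 17.8%. These 5 of 10 calls stand beside 2.73% of genes tested (1.46% higher, 1.27% lower), and 7 of 10 against 14.6% had an unadjusted p under 0.05. The A66 libraries are the reference here and are not shared with the comparison of palmitate with untreated cells. The log2 changes were 0.71 for Acss2 (SE 0.055, adjusted p = 2.12e-08), 0.44 for Acly (SE 0.039, adjusted p = 2.14e-07), 0.35 for Slc25a1 (SE 0.044, adjusted p = 3.43e-05), 0.19 for Me1 (SE 0.042, adjusted p = 0.0108) and -0.28 for Thrsp (SE 0.060, adjusted p = 0.00830). Acaca was level, at 360 CPM in both groups on average (log2 change -0.00041, SE 0.039, adjusted p = 0.999), its sign changing with the setting, and Fasn (-0.09, adjusted p = 0.341), Acacb (-0.07, adjusted p = 0.566), Srebf1 (-0.12, adjusted p = 0.306) and Mlxipl (0.08, adjusted p = 0.881) did not pass. The Me1 call was lost whichever library was left out, with adjusted p = 0.0811 and 0.169 without A66 library 1 or 2 and 0.0589 and 0.106 without palmitate plus A66 library 1 or 2. The Thrsp call was lost without A66 library 1 (0.404), without palmitate plus A66 library 1 (0.223) and with DESeq2 (adjusted p = 0.109).

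**Figure D3:**
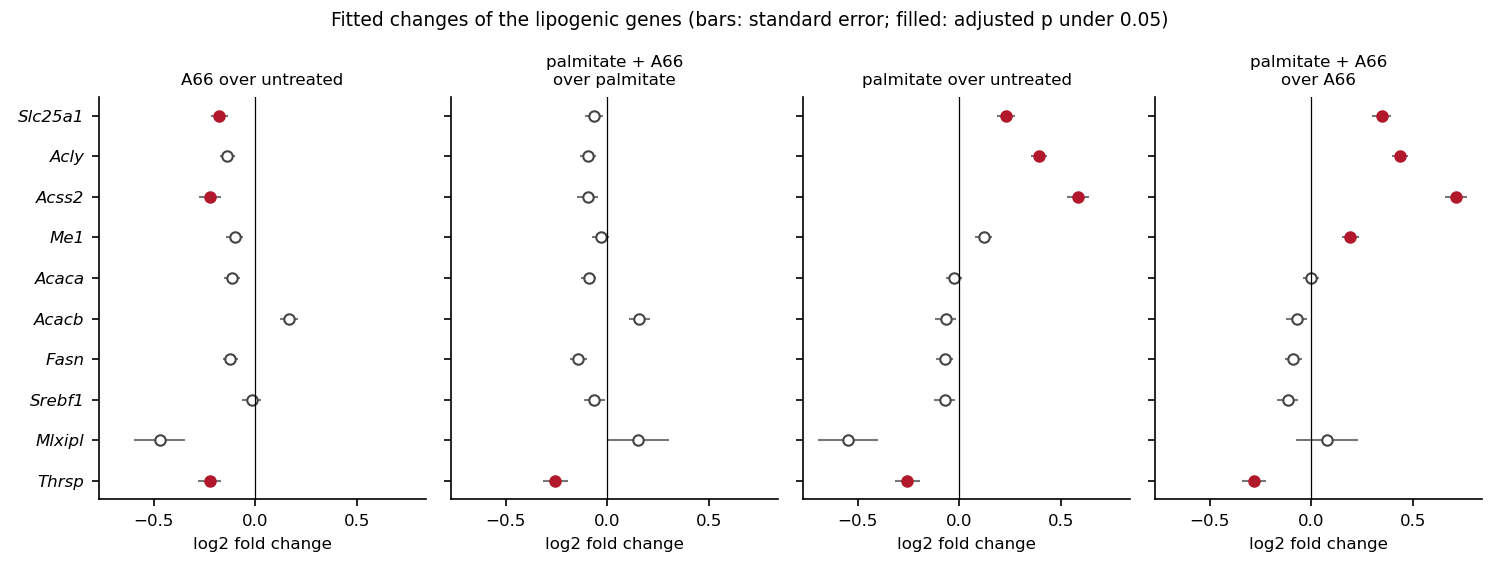
Log2 fold change of each gene in 4 comparisons, with the standard error as a bar and a filled point where the adjusted p is under 0.05. Slc25a1, Acly and Acss2 lie to the right of 0 in both palmitate comparisons and to the left of 0 in both A66 comparisons, and Thrsp is lower in all 4.

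A66 alone lowered 3 of the 10 genes by modest amounts. Compared with untreated cells, Thrsp fell by 14.4%, Acss2 by 14.2% and Slc25a1 by 11.5%, and none was called higher. The study's authors name Acss2 among the genes upregulated with A66, the opposite direction, and the reason for the difference was not tested. These 3 calls stand beside 1.84% of the 14158 genes tested in the 4 libraries (0.770% lower, 1.07% higher). A further 6 of the 10 had an unadjusted p under 0.05, so that 9 of 10 did against 12.8% of all genes tested. Below 0 were 9 of 10 changes, against 50.4% of all genes, with a median of -0.13 against -0.00106 over all genes. These are not the same 9 genes: Acacb was higher with an unadjusted edgeR p of 0.00111, and Srebf1 was lower with 0.720. The untreated libraries also serve as the reference for palmitate, and the A66 libraries as the reference for palmitate plus A66, so the comparisons are not independent of each other. The comparison addresses how inhibition of PI3K alters gene expression in fat cells.

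The log2 changes that passed were -0.22 for Thrsp (SE 0.055, adjusted p = 0.0331), -0.22 for Acss2 (SE 0.054, adjusted p = 0.0334) and -0.18 for Slc25a1 (SE 0.044, adjusted p = 0.0387). In all 3 genes both A66 libraries were below both untreated ones, which is no further support, because the same libraries gave the calls. Several genes lay just outside the threshold: Acacb stood at 153 and 148 CPM against 139 and 130 in untreated cells (log2 change 0.16, SE 0.044, adjusted p = 0.0560), and Mlxipl (-0.47, SE 0.13, adjusted p = 0.0588), Acly (-0.14, SE 0.038, adjusted p = 0.0675) and Fasn (-0.12, SE 0.037, adjusted p = 0.0950) were lower without passing. Acaca (-0.11, adjusted p = 0.161), Me1 (-0.10, adjusted p = 0.288) and Srebf1 (-0.02, adjusted p = 0.926) were further from it. The sign of Srebf1 depended on the library left out.

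These calls rest on few libraries and settings. With the replicate block and GC offsets all 3 were lost (adjusted p = 0.0634 for Acss2, 0.0569 for Slc25a1 and 0.0609 for Thrsp). Acss2 was also lost without untreated library 2 (adjusted p = 0.146), A66 library 1 (0.0704) or A66 library 2 (0.415), Slc25a1 without the same 3 (0.0595, 0.0657 and 0.536), and Thrsp without A66 library 2 (0.626). Other genes passed under some settings. Acacb did so with no filter (0.0105), at least 10 counts in every library (0.0442), the replicate block (0.0438) and length offsets (0.0266), and Mlxipl with no filter (0.00471), the block (0.0294), the block and GC offsets (0.0449) and library-size scaling (0.0447). Acly and Fasn passed with library-size scaling (0.0338 and 0.0479) and no filter (0.0262 and 0.0266). Without untreated library 1, Acly (0.0290), Acacb (6.07e-04), Me1 (0.0235) and Mlxipl (7.61e-04) passed, and without untreated library 2, Acly (0.0294) and Fasn (0.0361). With DESeq2, Acss2 (adjusted p = 0.0667) and Thrsp (0.555) did not pass, while Acly (0.0247) and Fasn (0.0359) did, and Mlxipl received no adjusted p. With all 8 libraries in the fit Thrsp did not pass (0.0620).

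With palmitate present, A66 lowered Thrsp. Palmitate plus A66 compared with palmitate gave this 1 call of 10, beside 2.81% of genes tested (1.84% lower, 0.973% higher), and 5 of 10 had an unadjusted p under 0.05 against 14.4%. Thrsp was 119 and 133 CPM with both agents and 147 and 153 CPM with palmitate, a fall of 16.2% (log2 change -0.26, SE 0.060, adjusted p = 0.0193). That call was lost without palmitate library 2 (0.164), without palmitate plus A66 library 1 (0.277) and with DESeq2 (adjusted p = 0.213). Fasn was lower by 9.42% without passing (log2 change -0.14, SE 0.042, adjusted p = 0.0769), and it passed without palmitate library 1 (0.0147), with DESeq2 (0.0135), with library-size scaling (0.0328) and with no filter (0.00718). Acacb, at 0.16 (SE 0.052, adjusted p = 0.121), passed with no filter (0.0299). Acaca was the 1 gene of the 10 lower in all 4 libraries with A66, at 359 to 362 CPM, than in all 4 without, at 382 to 393 CPM, a separation that 7.82% of genes showed in either direction. Its fitted change in the presence of palmitate was -0.09 (SE 0.039, adjusted p = 0.256). Of the 11 adipocyte markers only Retn (-0.32, adjusted p = 5.11e-04), Slc2a4 (-0.23, adjusted p = 0.00762) and Cidec (-0.23, adjusted p = 0.0373) passed in the same comparison, all lower. Of the rest, Fabp4 (0.02) and Pparg (0.03) lay just above 0 and the others below it. Among the 9 fibroblast markers only Col1a1 and Postn passed, both lower, while Ly6a (0.37, adjusted p = 0.0511) and Cd34 (0.22) were higher without passing. The part of these markers in the fall of Thrsp was not tested.

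Whether A66 acted differently with and without palmitate was tested directly as an interaction. None of the 10 genes passed, beside 0.00686% of all genes tested, which is the single gene Hmox1, a heme-degrading enzyme named here after its value was seen. With an unadjusted p under 0.05 there was 1 of 10 against 7.92% of all genes, and DESeq2 called 0 of the 10, giving no adjusted p for Mlxipl and Acss2. The 1 gene was Mlxipl, whose log2 change with A66 was -0.47 in the absence of palmitate and 0.15 in its presence, an interaction of 0.63 (SE 0.21, adjusted p = 0.457). For Slc25a1 the interaction was 0.12 (SE 0.063, adjusted p = 0.688), for Acss2 0.13 (SE 0.078, adjusted p = 0.729) and for Thrsp -0.03 (SE 0.085, adjusted p = 0.969). A different response to A66 in the presence of palmitate was therefore not detectable for these genes.

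In cells given both agents, 3 genes were higher and 2 lower than in untreated cells. Acss2 (1.40-fold), Acly (1.23-fold) and Slc25a1 (1.12-fold) were higher, Thrsp fell by 29.8% and Fasn fell by 13.8%. The 5 calls of 10 stand beside 7.50% of genes tested (3.79% higher, 3.71% lower), and 8 of 10 against 20.8% had an unadjusted p under 0.05. The log2 changes were 0.49 for Acss2 (SE 0.055, adjusted p = 3.43e-06), 0.30 for Acly (SE 0.039, adjusted p = 2.67e-05), 0.17 for Slc25a1 (SE 0.044, adjusted p = 0.0219), -0.51 for Thrsp (SE 0.060, adjusted p = 6.72e-06) and -0.21 for Fasn (SE 0.042, adjusted p = 0.00223). Acaca (-0.12, adjusted p = 0.0679), Mlxipl (-0.40, adjusted p = 0.110) and Srebf1 (-0.14, adjusted p = 0.133) were lower without passing, and Acacb (0.09, adjusted p = 0.347) and Me1 (0.09, adjusted p = 0.244) higher without passing. Thrsp and Fasn were thus lowest in this group. No library of either gene overlapped the untreated ones, which is no further support for calls from the same libraries. Counts of mitochondrial genes took 11.4% and 11.8% of the libraries with both agents and 10.5% to 10.98% of the other 6. The adipocyte marker sum, of which Lpl is the largest part, was 15452 to 16529 CPM against 18038 to 18084 CPM untreated. The part of either in the falls of Thrsp and Fasn was not tested. The Fasn call was lost without palmitate plus A66 library 1 (0.0523), and Slc25a1 without untreated library 1 (0.207) or palmitate plus A66 library 1 (0.109) or 2 (0.101). Srebf1 passed without untreated library 1 (0.0364). Acaca passed with DESeq2 (adjusted p = 0.0137) and with library-size scaling (0.0229), and Mlxipl with no filter (0.0218), with the replicate block (0.0375) and with the block and GC offsets (0.0387). With library-size scaling Slc25a1 did not pass (0.0606).

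The genes around the pathway were read from 6 lists. In SREBP-2 type cholesterol synthesis, whose genes draw on the same cytosolic acetyl-CoA, 18 of 20 tested genes rose with palmitate, beside 0.631% of all genes, and 0 fell, with a median log2 change of 0.36 against 0.000532 over all genes, led by Fdps (0.63, SE 0.044, adjusted p = 1.94e-08) and Msmo1 (0.49, SE 0.040, adjusted p = 1.39e-07). On top of A66, all 20 rose with palmitate, beside 1.46% of all genes, with a median of 0.49. With A66 alone 11 of 20 fell, beside 0.770% of all genes, and 0 rose, with a median of -0.21, Sqle (-0.28, adjusted p = 3.94e-04) among them. With both agents 15 rose over untreated cells, beside 3.79% of all genes, and 0 fell.

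Desaturation and elongation genes, which act on the fatty acids once made, included 6 of 15 tested that rose with palmitate, again beside 0.631%, and 0 that fell, with a median of 0.16. Fads2 (0.52, SE 0.043, adjusted p = 1.39e-07) and Fads1 (0.37, SE 0.041, adjusted p = 6.86e-06), the desaturases of polyunsaturated fatty acids, led them. With A66, Elovl6 (-0.32, adjusted p = 0.00245), which lengthens palmitate, and Scd2 (-0.18, adjusted p = 0.00703) fell, 2 of 15 beside 0.770% of all genes, and 0 rose. Among 17 genes of SREBP processing and nuclear receptor control, Insig1 (0.41, SE 0.044, adjusted p = 6.86e-06), which retains SREBP in the endoplasmic reticulum, and Srebf2 (0.35, SE 0.040, adjusted p = 1.68e-05) rose with palmitate and Abca1 (-0.20, adjusted p = 0.0280), a cholesterol exporter, fell, beside 0.631% of all genes higher and 0.542% lower. Under A66 0 of 17 were called, beside 1.84%.

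Counts in the other lists were near the share of all genes called, 1.17% with palmitate and 1.84% with A66, and so are no result about these lists. Of 23 further genes of acetyl-CoA and NADPH supply, 0 passed in either direction with palmitate, with a median of 0.01, and with A66 only G6pdx (-0.25, SE 0.042, adjusted p = 0.00167), the entry enzyme of the pentose phosphate route to NADPH, fell. Of 15 genes controlling acetyl-CoA carboxylase and malonyl-CoA, and of 7 tested partners and targets of ChREBP, 0 passed under either agent alone. Among genes used to look for a response to the agents, Plin2, which coats lipid droplets, had a log2 change of 0.17 with palmitate (adjusted p = 0.0572) and rose on top of A66 (0.21, adjusted p = 0.00737) and with both agents over untreated cells (0.31, adjusted p = 5.65e-05), while Irs2, Insr, Pdk4, Angptl4 and Cpt1a passed in none of the 5 comparisons between groups.

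**Figure D4:**
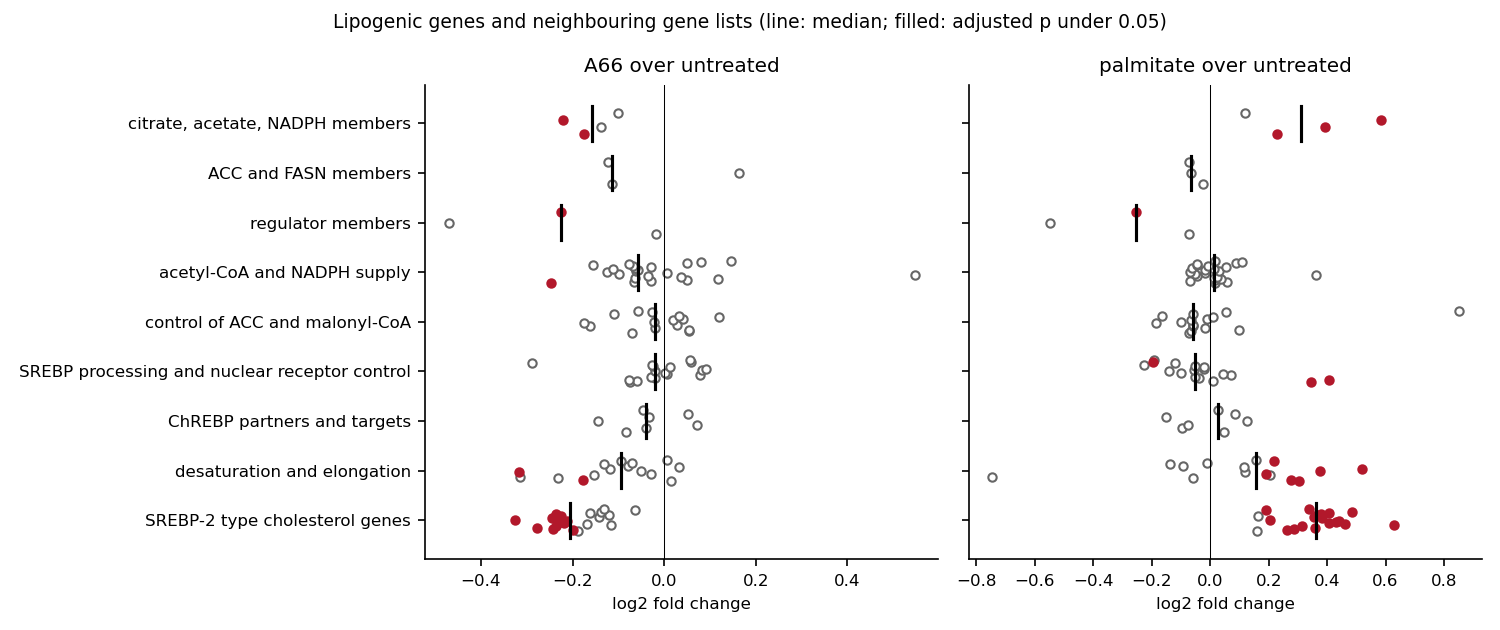
Log2 fold changes with A66 (left) and palmitate (right) over untreated cells for the lipogenic genes, split by role, and for 6 neighbouring gene lists, with the median as a line and filled points where the adjusted p is under 0.05. The scales of the panels differ. With palmitate the SREBP-2 type cholesterol genes have a median of 0.36 with 18 of 20 filled, beside 3 of the 4 citrate, acetate and NADPH genes.

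Across the 8 libraries the 4 genes that were high with palmitate followed one another, with Pearson's r of 0.98 for Acss2 and Acly, 0.97 for Slc25a1 and Me1 and 0.96 for Slc25a1 and Acss2. Thrsp and Fasn had r = 0.90, and Fasn and Acaca r = 0.87. These values describe 8 libraries that share their treatment groups and are no test. The genes most like Fasn, among 8956 with a mean of at least 10 CPM, were Dtx4 and Crat (both r = 0.99) and 4931428F04Rik (0.98). Those most like Srebf1 were Dgat1 (0.97), Eif2b1 (0.96) and Mfsd12 (0.95), and those most like Mlxipl were Bscl2, Tbk1 and Clasrp (each 0.97).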

How the data were processed

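RNA from 8 libraries of 3T3-L1 adipocytes (4 groups of 2, assigned from the treatment in the labels) was prepared with a stranded, oligo dT selected kit. The authors aligned reads with TopHat2 2.0.11 to GRCm38 and deposited raw HTSeq counts per Ensembl gene, 43629 genes, unnormalized. The annotation and strand setting of the counting are not given in the sources used here. Columns holding the authors' own DESeq2 comparison (fold changes, p-values) were not used.

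Symbols were taken from GENCODE M21 (42548 genes matched) and promoters from RefSeq GRCm38.p6, all 10 genes matching. Tests were run with edgeR 4.0.16 under R 4.3.3, using filterByExpr with a minimum count of 10, TMM, the quasi-likelihood test, two-sided, Benjamini-Hochberg adjustment over all genes tested and a threshold of 0.05. A66 was compared with untreated cells in their 4 libraries, and the other comparisons and the interaction used all 8 with one spread estimate. The standard error is the log2 change divided by the square root of F. The script was tested on simulated data.

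Alternatives were RLE or library-size scaling, DESeq2 1.42.0, other filters, other libraries in the fit, a replicate block, length and GC offsets (loess span 0.4) and leaving out each library. Fewer than 3 counts, or 0.0521 to 0.0710 CPM, was taken as the floor, and this covers counting error only. Between replicates the mean chi-square per gene was 6.15 to 8.99, more than counting noise alone gives, so no library was counted as a duplicate. The methods speak of biological repeats, but the labels name no separate cultures, and p-values measure the spread between these samples. The 10 genes, the lists and the rule for naming genes (all 10 members, and from each list at most 2 genes per direction and comparison, those with the smallest p) were chosen with earlier results of these data known. Some genes that this rule names are not reported here.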

Additional observations from a re-analysis of the deposited data

How the results depend on the processing

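The rise of Acly and Acss2 with palmitate passed in edgeR and DESeq2 under each alternative run, in the presence and absence of A66. The A66 calls moved most: against 3 genes called of the 10, library-size scaling gave 6, no filter 7, the replicate block 5 and the replicate block with GC offsets 1. That 1 was Mlxipl (adjusted p = 0.0449), and the 3 genes called before were lost there. Palmitate plus A66 against palmitate gave 2 with library-size scaling and 3 with no filter, against 1. Over all genes, no filter gave 459 calls against 261 for A66, 396 against 171 for palmitate, 652 against 410 for palmitate plus A66 against palmitate and 664 against 398 for palmitate plus A66 against A66, where the 4 libraries alone gave 689. The interaction over all genes had 1 call, and had 2 with library-size scaling, 21 with DESeq2, 91 with no filter, 3 with the replicate block, 3 with length offsets, 2 with GC offsets and 2 with the block and GC offsets. The cause was not tested.

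Leaving out each library gave 0 to 7 of the 10 called for A66 (98 to 635 over all genes), 2 to 5 for palmitate (71 to 245), 0 to 2 for palmitate plus A66 against palmitate (147 to 426), 3 to 4 against A66 (107 to 346), 3 to 5 against untreated cells (437 to 927) and 0 to 0 for the interaction (0 to 10). For A66 the 0 came without A66 library 2, 1 without A66 library 1 and 7 without untreated library 1. For palmitate the 2 came without untreated library 1, for palmitate plus A66 against palmitate the 0 without palmitate library 2 or palmitate plus A66 library 1 and the 2 without palmitate library 1, and the 3 without A66 library 1 or palmitate plus A66 library 1 against A66 and without palmitate plus A66 library 1 against untreated cells. Over all genes the lowest counts came without A66 library 2, palmitate library 1, palmitate library 2, A66 library 1 and palmitate plus A66 library 1, in that order of comparisons, and the interaction had 0 without A66 library 1. Among log2 changes that did not pass, signs changed: Acaca in palmitate plus A66 against A66 was 0.00038 with at least 10 counts in every library, 0.0031 with length offsets, 0.0029 with GC offsets and 0.0029 with the block and GC offsets, and -0.0067 to 0.0056 with a library left out. The interaction of Acacb was 0.0197 with GC offsets and 0.0196 with the block and GC offsets (-0.0743 to 0.0647 with a library left out), and that of Fasn 0.0140 under both (-0.0659 to 0.0324). With a library left out Srebf1 ranged from -0.0926 to 0.0676 for A66, -0.15 to 0.0088 for palmitate, -0.14 to 0.018 for palmitate plus A66 against palmitate and -0.13 to 0.035 for the interaction. Acacb ranged from -0.14 to 0.0019 for palmitate, Mlxipl from -0.0652 to 0.40 against palmitate and -0.0620 to 0.22 against A66, and the interaction of Thrsp from -0.14 to 0.10.

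Same-numbered libraries deviated together with r from -0.15 to 0.15 over 8956 genes, and no label ties a number to a batch, so the numbers were not used as pairs. With the numbers of the A66 libraries crossed in the replicate block, an alternative chosen after seeing the data, palmitate plus A66 against A66 gave 5 of the 10 and 503 of all genes.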

Other observations

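In cells with palmitate, A66 lowered some genes around the pathway, in a comparison for which these lists are not given above. Slc25a10, the dicarboxylate carrier of the mitochondrion (log2 change -0.34, SE 0.046, adjusted p = 2.13e-04 by edgeR), and Mdh1, cytosolic malate dehydrogenase (-0.22, SE 0.043, adjusted p = 0.00527), were 2 of the 3 genes called lower among 23 of acetyl-CoA and NADPH supply, beside 1.84% of all genes, with 0 higher. Dhcr7 (-0.22, adjusted p = 0.00736) was among 4 of 20 cholesterol genes called lower, beside the same 1.84%. Elovl6 (-0.27, adjusted p = 0.00654) was the 1 of 15 in desaturation and elongation. Pnpla3 (-0.43, adjusted p = 0.0215) was the 1 of 17 in SREBP processing and nuclear receptor control, and Arrdc4 (-0.28, adjusted p = 0.0139) the 1 of 7 tested partners and targets of ChREBP. These single calls are no result about their lists.

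On top of A66, palmitate lowered Ppargc1b (-0.41, adjusted p = 0.00314) and Rxra (-0.27, adjusted p = 8.32e-04), coactivator and partner of nuclear receptors. They were 2 of the 4 genes called lower among 17 of SREBP processing and nuclear receptor control, beside 1.27% of all genes. In that list Insig1 (0.45, adjusted p = 7.88e-07) and Srebf2 (0.34, adjusted p = 1.46e-05) were called higher, beside 1.46%. Gpd1, glycerol-3-phosphate dehydrogenase (-0.28, adjusted p = 0.00141), was the 1 of 7 tested partners and targets of ChREBP called lower. Of the 23 genes of acetyl-CoA and NADPH supply palmitate raised 1, Pgd of the pentose phosphate pathway (0.25, adjusted p = 9.90e-04), and lowered 1, Slc25a10 (-0.22, adjusted p = 0.00622). The shares of all genes were 1.46% and 1.27%, so these counts are no result about the list, whose median was -0.04. Against untreated cells, both agents together lowered 6 of these 23 genes and raised 2, beside 3.71% and 3.79% of all genes.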
